A study of Homo sapiens with 4 samples.

Results

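The aminoacyl-tRNA synthetases are the enzymes that attach each amino acid to its tRNA. Their genes were taken by name, 19 for the cytosolic and 16 for the mitochondrial enzymes, a rule that uses no measured value, although the set was proposed with earlier results of these data known. All 35 were among the 20323 genes of the deposited table, and all 35 passed the filter on low counts that left 11810 genes for testing. RNA came from NK-92, an established human natural killer cell line grown in RPMI medium with fetal bovine serum, β-mercaptoethanol, recombinant IL-2 and antibiotics. Both groups had been transduced with lentivirus in the presence of polybrene. The scramble group (labelled shscramble) carried a control hairpin, and the shADAR1 group carried a hairpin against ADAR1, the enzyme that edits adenosine to inosine in double-stranded RNA. Each group had 2 libraries of mRNA selected on oligo(dT) beads, described by the submitters as independent biological replicates. The labels number the knockdown libraries 1 and 2, which the study also uses to name its hairpins, and these numbers were read here as replicates. The study names shADAR1-2 cells, those of its hairpin 2, as the knockdown cells that it sequenced. Whether the cells of the 2 libraries were separately transduced was not given, so the p-values measure only the spread between these libraries.

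A synthetase recognizes its amino acid and its tRNA, joins them, and in many cases removes a wrong amino acid again. In human cells most amino acids have separate cytosolic and mitochondrial enzymes, all encoded in the nucleus, while GARS1 and KARS1 each supply both compartments. Several cytosolic enzymes are held in the multisynthetase complex by the scaffold proteins AIMP1, AIMP2 and EEF1E1. Uncharged tRNA activates the kinase GCN2, which phosphorylates eIF2α and so favours translation of the transcription factor ATF4, and many genes of cytosolic synthetases are known ATF4 targets. WARS1, the tryptophanyl enzyme, is also a classical target of interferon gamma.

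The libraries held 37881704 to 39960491 estimated counts each. ADAR, the targeted gene, had 655 and 682 CPM in the scramble libraries and 575 and 482 CPM in the shADAR1 libraries, where CPM are counts scaled to a common library size. Its log2 fold change of -0.34 (SE 0.20) did not pass the test. The study itself reported the knockdown in its NK-92 cells from qRT-PCR and western blotting. The NK markers NKG7, GNLY, PRF1, GZMB, KLRD1 and NCAM1 were all tested, with a median log2 fold change of 0.03. The 4 tested markers of other cell types all had higher estimates in shADAR1. Of the T cell markers, TRAC had 4024 and 4809 counts in scramble and 4796 and 5246 in shADAR1 (log2 fold change 0.23) and CD3D had 10 and 11 against 24 and 16 (0.96), while CD3G, CD4 and CD8B had at most 9 in any library and CD8B had 0 in all. Of the myeloid markers, CSF1R had 64 and 52 counts in scramble and 86 and 86 in shADAR1 (0.62), and CD14 and LYZ had at most 3. Of the B cell markers, CD79A had 47 and 22 counts against 92 and 32 (0.88), and MS4A1 had 0 in each library. Scaled by total counts, the 5 T cell markers summed to 102 and 121 CPM in scramble and 127 and 137 CPM in shADAR1, nearly all of it TRAC. The 3 myeloid markers summed to 1.62 and 1.35 CPM against 2.35 and 2.33 CPM, and the 3 B cell markers to 1.19 and 0.551 CPM against 2.46 and 0.856 CPM. The part of such markers in the synthetase values was not tested. The quasi-likelihood test of edgeR, adjusted by Benjamini-Hochberg over the 11810 genes, called 0 genes at an adjusted p under 0.05 and a 1.5-fold change or more, a background of 0%. DESeq2 also called 0, and 293 genes had an unadjusted p under 0.05 in edgeR. The study did report differentially expressed genes in these cells, from DESeq2 at the same adjusted p and fold change. The reason for this difference was not tested.

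The genes of cytosolic enzymes were expressed at higher levels than those of mitochondrial enzymes in every library. Levels were compared between genes as FPKM, which divides fragments by transcript length. The 19 cytosolic genes summed to 1851 and 1732 FPKM in scramble replicates 1 and 2 and to 1551 and 1616 FPKM in shADAR1 replicates 1 and 2. The 16 mitochondrial genes summed to 276, 266, 267 and 270 FPKM in the same order. The shADAR1 libraries were thus below the scramble libraries for the cytosolic sum and overlapped them for the mitochondrial sum. The log2 ratio of shADAR1 to scramble was -0.18 for the cytosolic sum, which became -0.11 when WARS1 was left out, and -0.013 for the mitochondrial sum. The cytosolic sum was 6.71 and 6.51 times the mitochondrial sum in scramble and 5.81 and 5.99 times in shADAR1. With 2 libraries a group, an exact permutation test cannot reach a p under 0.05, so none was made of these sums.

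**Figure D1:**
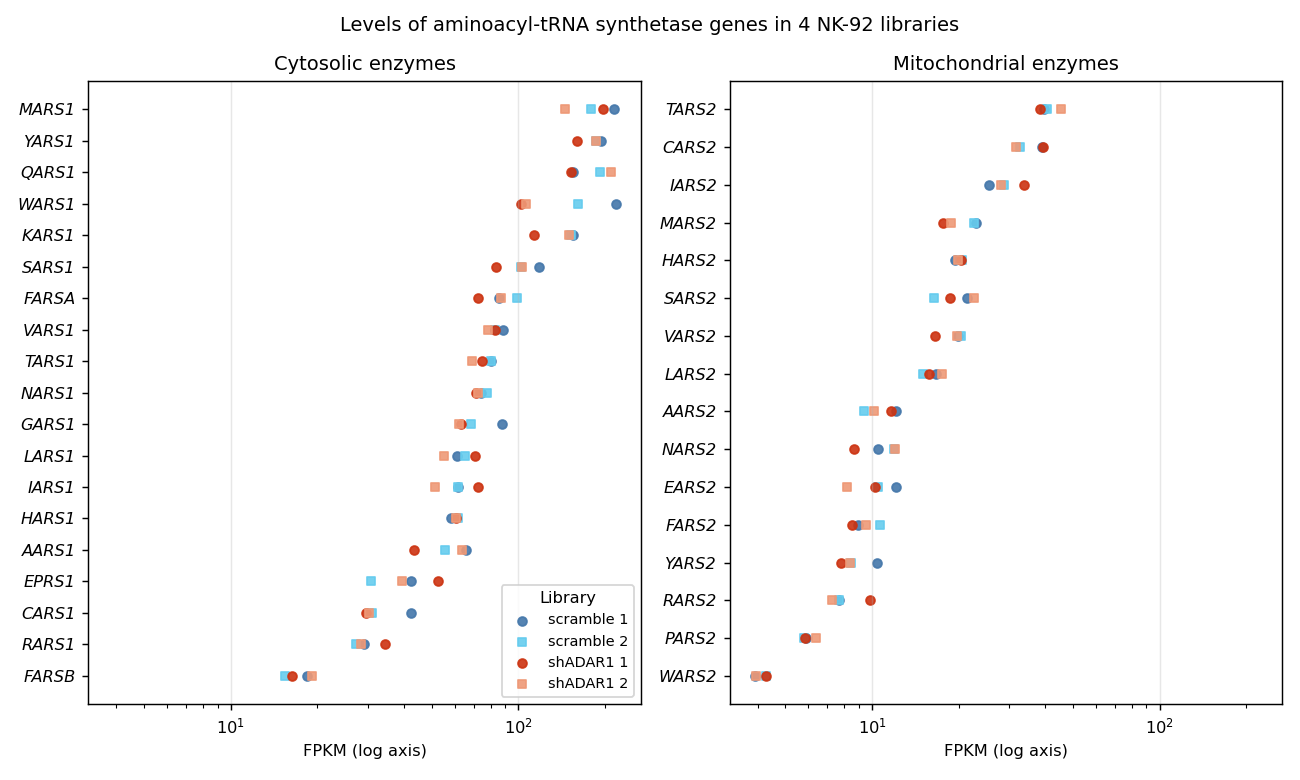
Level of each synthetase gene in each library, in FPKM on a log axis, with cytosolic enzymes on the left and mitochondrial enzymes on the right, each ordered by the mean over the 4 libraries. Points are single libraries, circles for replicate 1 and squares for replicate 2. The cytosolic genes ran from 17.3 FPKM (FARSB) to 184 FPKM (MARS1) and the mitochondrial genes from 4.10 FPKM (WARS2) to 41.0 FPKM (TARS2).

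Among cytosolic genes, the mean over the 4 libraries was highest for MARS1, the methionyl enzyme, at 184 FPKM, followed by YARS1 (tyrosyl) at 181, QARS1 (glutaminyl) at 177, WARS1 at 147 and KARS1 (lysyl) at 143 FPKM. The ranges of these 5 genes overlapped from each gene to the next. The order ran on through SARS1, FARSA, VARS1, TARS1, NARS1, GARS1, LARS1, IARS1, HARS1 and AARS1, at 102 to 57.0 FPKM, again with every neighbour overlapping. The lowest were EPRS1 at 41.2, CARS1 at 33.2, RARS1 at 29.8 and FARSB at 17.3 FPKM. RARS1 and FARSB were the only cytosolic neighbours in that order whose libraries did not overlap. The median cytosolic gene stood at 73.9 FPKM and the median mitochondrial gene at 13.5 FPKM. Of the 19 cytosolic genes, 16 had a mean above that of TARS2, the highest mitochondrial gene at 41.0 FPKM.

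The mitochondrial genes formed steps wider than the spread between libraries. TARS2, CARS2 and IARS2, the threonyl, cysteinyl and isoleucyl enzymes, had means of 41.0, 35.7 and 28.99 FPKM, and IARS2 did not overlap the next gene, MARS2, at 20.5 FPKM. HARS2, SARS2, VARS2 and LARS2 followed at 20.1 to 16.3 FPKM. LARS2 did not overlap AARS2 at 10.8 FPKM, which opened a group with NARS2, EARS2, FARS2, YARS2 and RARS2 down to 8.11 FPKM. PARS2, the prolyl enzyme, at 5.99 FPKM and WARS2, the tryptophanyl enzyme, at 4.10 FPKM stood alone at the bottom.

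The ratio between the cytosolic and the mitochondrial enzyme for the same amino acid differed widely. Over 16 such pairs the mean ratio of FPKM values ran from 0.934 for CARS1 over CARS2 to 36.1 for WARS1 over WARS2, and CARS1 over CARS2 was the only pair below 1 in any library. WARS1 over WARS2 was 55.9 and 37.9 in scramble replicates 1 and 2 and 23.8 and 27.0 in shADAR1 replicates 1 and 2. Both shADAR1 ratios were below both scramble ratios for 4 pairs, those of WARS, SARS, TARS and FARSA over FARS2. The opposite held for 1 pair, EPRS1 over EARS2, at 3.49 and 2.93 in scramble and 5.12 and 4.81 in shADAR1. How often pairs of other genes separate in this way was not computed, so these counts have no background. SARS2 was highest in shADAR1 replicate 2 in FPKM but in scramble replicate 1 in CPM. The separation of the SARS pair thus depends in part on the lengths used for FPKM. The TARS pair separated narrowly, at 2.04 and 1.97 in scramble and 1.96 and 1.51 in shADAR1. Its ratio taken from CPM overlapped between the groups. EPRS1 joins both glutamate and proline to their tRNAs and so enters 2 pairs, and its ratio to PARS2 overlapped between the groups. FARSA and FARSB encode the α and β subunits of the same phenylalanyl enzyme. FARSA stood at 4.67 and 6.43 times the FPKM of FARSB in scramble and at 4.44 and 4.55 times in shADAR1. In CPM, which are not divided by length, FARSA had 153 and 166 in scramble and 126 and 151 in shADAR1. FARSB had 123 and 106 CPM, then 106 and 134 CPM, in the same order. The FPKM gap and the low place of FARSB thus depend on the lengths used for FPKM, which were not given.

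Against scramble, 26 of the 35 genes had a lower estimate in shADAR1 and 9 a higher estimate, where 50% of all tested genes had a negative log2 fold change. Under upper quartile scaling, which moved the median of all tested genes from 0.00 to 0.01, 22 of 35 were lower. None of the 35 passed the test, with adjusted p = 1.00 for each in edgeR and a smallest adjusted p of 0.569 in DESeq2, for WARS1. WARS1 was also the only member with an unadjusted p under 0.05, where 0.779% of all tested genes were lower and 1.7% higher at that level. The median fold change of the members was smaller than their median difference between replicates, as it was over all tested genes. The median absolute log2 fold change was 0.11 over the 35 genes, while the median absolute log2 difference between the 2 libraries of a group was 0.17 in scramble and 0.20 in shADAR1. Over all tested genes these values were 0.15, 0.26 and 0.27. A fold change compares means of 2 libraries and so varies less than a difference between single libraries.

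The cytosolic genes had a median log2 fold change of -0.14, with 16 of 19 lower. The mitochondrial genes had a median of -0.021, with 10 of 16 lower, and all tested genes had a median of 0.00. Both shADAR1 libraries lay below both scramble libraries in CPM for 8 members, of which 7 were cytosolic, WARS1, GARS1, CARS1, MARS1, FARSA, TARS1 and VARS1, and 1 mitochondrial, MARS2. That separation held for 12.6% of all tested genes. The opposite separation held for 1 member, RARS1, and for 13.3% of all tested genes. In FPKM, both shADAR1 libraries lay below both scramble libraries for 11 members and for 11.6% of all tested genes, and above them for 0 members and for 14.2% of all tested genes. Of these 11, 7 were cytosolic, with KARS1 and NARS1 in place of MARS1 and FARSA, and 4 were mitochondrial, MARS2, EARS2, VARS2 and YARS2.

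**Figure D2:**
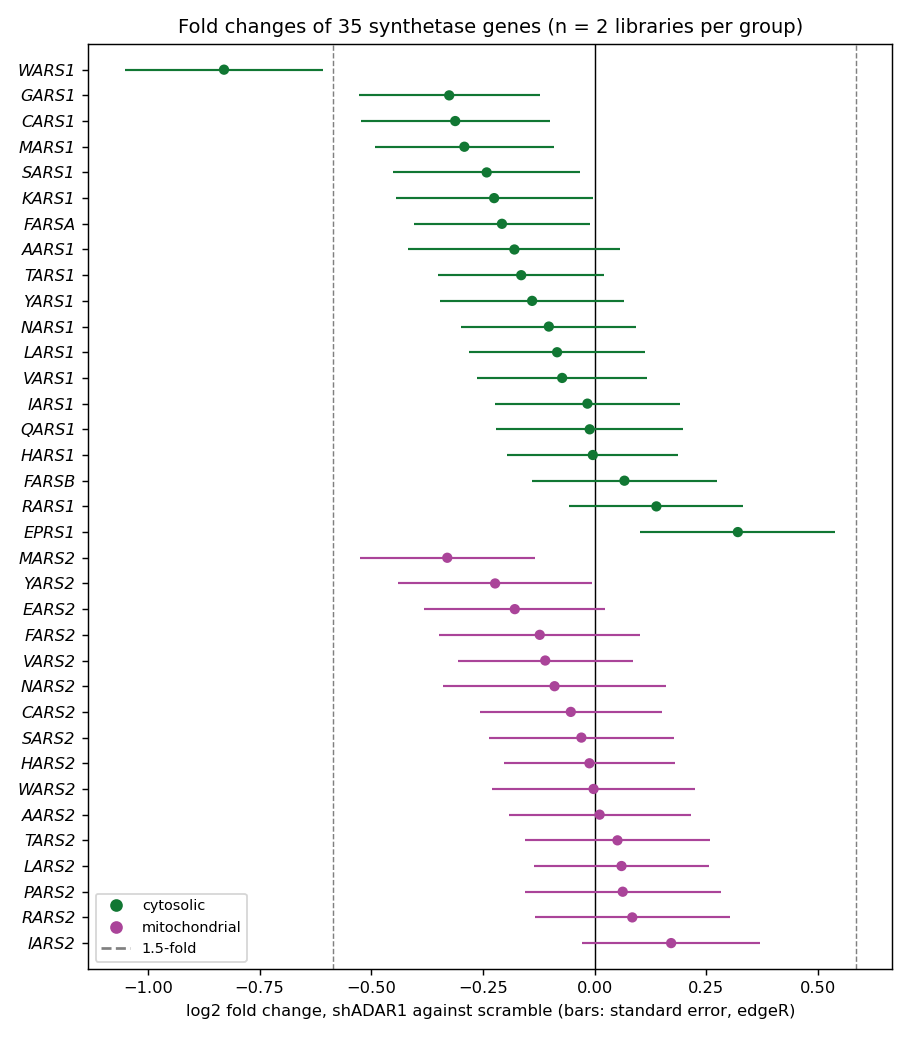
Log2 fold change of each of the 35 genes, shADAR1 against scramble, from edgeR with 2 libraries per group. Points are estimates, bars are standard errors, dashed lines mark a fold change of 1.5, and only WARS1, at -0.83, lay beyond them.

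These counts rested in part on 1 library. Replicate 1 of shADAR1 was the lowest of the 4 libraries for 20 of the 35 genes, 11 cytosolic and 9 mitochondrial, where it was the lowest for 29.1% of all tested genes. The median deviation of that library from the mean of the other libraries was -0.18 on the log2 scale over the members and 0.008 over all tested genes. Without it, 11 of 19 cytosolic genes were lower and their median was -0.075, and without shADAR1 replicate 2 the median was -0.22. The deviation of that library also moved with transcript length, with a Spearman correlation across genes of 0.22 over 11613 genes and 0.25 over the 35 members. Genes are not independent replicates, and the part of length in the members' values was not tested. With length and GC content regressed out, 14 of 19 cytosolic genes were lower, with a median of -0.15.

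WARS1 showed the largest difference of the 35 genes. It joins tryptophan to its cytosolic tRNA and lies on chromosome 14, minus strand, at chr14:100333788-100376805 (GRCh38, GENCODE release 29). It had 429 and 301 CPM in scramble replicates 1 and 2 and 198 and 212 CPM in shADAR1 replicates 1 and 2, or 365 ± 90.4 against 205 ± 9.95 CPM (SD, n = 2). Both shADAR1 libraries were low, and scramble replicate 1 stood well above scramble replicate 2. The log2 fold change was -0.83 (SE 0.22), or 1.78-fold lower, with an unadjusted p of 0.00367 in edgeR's quasi-likelihood test. Without scramble replicate 1, a fit whose spread came from shADAR1 alone, it was -0.55 and no member had an unadjusted p under 0.05, and without scramble replicate 2 it was -1.07. In FPKM, WARS1 stood at 219, 162, 102 and 106 in the same order, with the same separation. Exons of WARS1 overlap exons of WDR25 and of an antisense gene on the other strand, and a pseudogene, WARSP1, is annotated, so reads shared with them were not told apart here.

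The other cytosolic genes with the largest estimates had values close to the spread between replicates. GARS1, the glycyl enzyme of both compartments, had 206 and 160 CPM in scramble and 144 and 147 CPM in shADAR1, a log2 fold change of -0.33 (SE 0.20). CARS1, the cysteinyl enzyme, had 106 and 80.5 CPM in scramble and 71.9 and 78.2 CPM in shADAR1, a log2 fold change of -0.31 (SE 0.21). In both genes scramble replicate 1 was the high library, with the other 3 libraries close together. Without it, the log2 fold changes were -0.14 for GARS1 and -0.10 for CARS1.

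MARS1 had 346 and 287 CPM in scramble and 247 and 271 CPM in shADAR1, a log2 fold change of -0.29 (SE 0.20), and -0.15 without scramble replicate 1. Its groups did not overlap in CPM but did in FPKM, at 215 and 179 in scramble and 197 and 145 in shADAR1. The transcript length implied by its count and FPKM varied 1.39-fold between libraries, against a median of 1.06-fold over all tested genes. It varied 1.38-fold for EARS2 and 1.30-fold for NARS1. Exons of MARS1 also overlap those of DDIT3 and ARHGAP9 on the other strand.

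EPRS1, the glutamyl-prolyl enzyme of the multisynthetase complex, had the largest estimate in the other direction. It had 203 and 152 CPM in scramble and 246 and 198 CPM in shADAR1, a log2 fold change of 0.32 (SE 0.22) with overlapping groups, which was 0.54 without scramble replicate 1 and 0.12 without scramble replicate 2. RARS1, the arginyl enzyme, had 61.3 and 59.0 CPM in scramble and 70.1 and 62.3 CPM in shADAR1. Its groups did not overlap but lay close together, at a log2 fold change of 0.14, and they overlapped in FPKM.

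KARS1, the lysyl enzyme of both compartments, had 309 and 312 CPM in scramble and 218 and 313 CPM in shADAR1. Its log2 fold change of -0.22 (SE 0.22) rested on shADAR1 replicate 1, and without that library it was 0.01. In FPKM it had 155 and 153 in scramble and 113 and 149 in shADAR1, without overlap. SARS1, AARS1 and YARS1, at log2 fold changes of -0.24, -0.18 and -0.14, showed the same arrangement, with shADAR1 replicate 1 lowest and shADAR1 replicate 2 within or above the range of scramble. AARS1, the alanyl enzyme, had 225 and 195 CPM in scramble and 145 and 226 CPM in shADAR1. FARSB, the cytosolic gene of lowest FPKM, had 123 and 106 CPM in scramble and 106 and 134 CPM in shADAR1. TARS1, the threonyl enzyme, differed little between replicates, with 211 and 216 CPM in scramble and 192 and 189 CPM in shADAR1, a log2 fold change of -0.16. The remaining cytosolic estimates lay between -0.21 (FARSA) and -0.004 (HARS1).

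**Figure D3:**
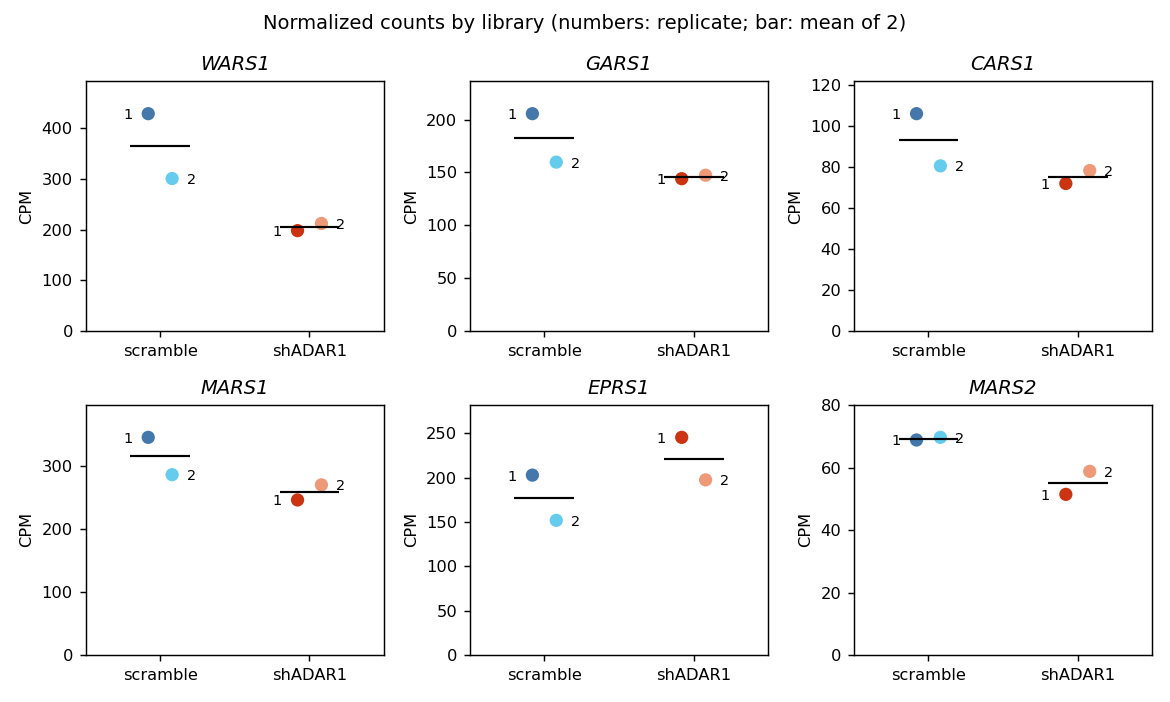
Normalized counts (CPM, linear axes from 0) of 6 synthetase genes in each library, scramble on the left and shADAR1 on the right of each panel, with the replicate number beside each point and a bar at the mean of the 2 libraries. WARS1 stood at 429 and 301 CPM in scramble and at 198 and 212 CPM in shADAR1, and EPRS1 alone of the 6 had the higher mean in shADAR1.

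Of the mitochondrial genes, only MARS2 separated the groups in both CPM and FPKM, while EARS2, VARS2 and YARS2 did so in FPKM but not in CPM. This methionyl enzyme, encoded without introns on chromosome 2, had 68.9 and 69.8 CPM in scramble and 51.5 and 58.9 CPM in shADAR1, a log2 fold change of -0.33 (SE 0.20) and -0.24 without shADAR1 replicate 1. YARS2, the tyrosyl enzyme, had 21.7 and 18.2 CPM in scramble and 15.9 and 18.3 CPM in shADAR1. EARS2, the glutamyl enzyme, which also charges the mitochondrial glutamine tRNA with glutamate, had 42.1 and 37.4 CPM in scramble and 32.2 and 37.97 CPM in shADAR1. In both, shADAR1 replicate 2 lay within the range of scramble in CPM. In FPKM, YARS2 had 10.4 and 8.44 in scramble and 7.82 and 8.36 in shADAR1, and EARS2 had 12.1 and 10.5 in scramble and 10.3 and 8.20 in shADAR1.

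IARS2 had the highest mitochondrial estimate, with 88.8 and 104 CPM in scramble and 114 and 102 CPM in shADAR1, a log2 fold change of 0.17 (SE 0.20). FARS2, the phenylalanyl enzyme, had 14.8 and 17.8 CPM in scramble and 13.7 and 16.3 CPM in shADAR1. TARS2, the mitochondrial gene of highest FPKM, had 103 and 109 CPM in scramble and 95.6 and 124 CPM in shADAR1. WARS2, the lowest, had 10.8 and 12.1 CPM in scramble and 11.5 and 11.4 CPM in shADAR1. The mitochondrial tryptophanyl gene overlapped between the groups where the cytosolic WARS1 did not. The other 9 mitochondrial estimates lay between -0.11 (VARS2) and 0.08 (RARS2), each with overlapping groups in CPM.

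The cytosolic genes were also described by what is known of them. The 13 known as ATF4-responsive had a median log2 fold change of -0.16, with 12 lower, 1 with an unadjusted p under 0.05 and 6 with both shADAR1 libraries below both scramble libraries in CPM (12.6% of all tested genes). The other 6, FARSA, FARSB, HARS1, KARS1, QARS1 and RARS1, had a median of -0.0075, with 4 lower and 1 separated in each direction, a median that was -0.17 without shADAR1 replicate 2 and 0.05 without shADAR1 replicate 1. The 7 synthetases of the multisynthetase complex had a median of -0.016, with 5 lower. Class I and class II enzymes, which differ in the fold of the catalytic domain, had medians of -0.078 over 18 genes and -0.096 over 16 genes, leaving EPRS1 out because it holds a domain of each class. These lists were written with earlier results of these data known, and no difference between them was tested.

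The 3 scaffold genes of the complex had lower estimates, with a median of -0.21 that was -0.03 without shADAR1 replicate 1 and -0.42 without shADAR1 replicate 2. AIMP2 had 39.0 and 31.9 CPM in scramble and 26.3 and 29.7 CPM in shADAR1, a log2 fold change of -0.34 (SE 0.21), and its groups did not overlap. Without scramble replicate 1 it was -0.19. EEF1E1 had 34.3 and 53.8 CPM in scramble and 33.1 and 43.3 CPM in shADAR1, so its spread within scramble was larger than the difference between groups. AIMP1 had 50.5 and 51.4 CPM in scramble and 46.7 and 53.0 CPM in shADAR1, a log2 fold change of -0.03.

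The ATF4 pathway outside the synthetases covered stress transcription factors, amino acid transporters and enzymes of serine, proline and one-carbon synthesis. Of 31 listed genes 26 were tested, and 25 of them had a lower estimate in shADAR1, with a median log2 fold change of -0.35. An unadjusted p under 0.05 was reached by 7, all lower, where 0.779% of all tested genes were lower at that level. Both shADAR1 libraries lay below both scramble libraries for 15, against 12.6% of all tested genes. No gene passed after adjustment. SESN2, a stress-induced inhibitor of mTORC1 signaling, had 82.2 and 49.7 CPM in scramble and 32.9 and 36.0 CPM in shADAR1, a log2 fold change of -0.94 (SE 0.25). ATF3, a transcription factor of the same response, had 13.5 and 9.82 CPM in scramble and 2.64 and 7.52 CPM in shADAR1, a log2 fold change of -1.20 (SE 0.42). CEBPB, a partner of ATF4 on DNA, had 50.9 and 18.0 CPM in scramble and 22.4 and 10.7 CPM in shADAR1, a log2 fold change of -1.06 (SE 0.45) with overlapping groups. As in WARS1, GARS1 and CARS1, scramble replicate 1 was the highest library for all 3, and without it the log2 fold change was -0.53 for SESN2 and -0.13 for CEBPB, and the median of the list was -0.17. ATF3 stood at -0.63 without shADAR1 replicate 1.

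Library by library, the cytosolic synthetases and the ATF4 pathway had the same order of medians, with scramble replicate 1 highest and shADAR1 replicate 1 lowest. A lowest shADAR1 replicate 1 was not particular to them. It held also for uncharged tRNA sensing (-0.06), elongation factors (-0.15), tRNA maturation (-0.14) and the mitochondrial partners (-0.07). It did not hold for the gamma-type interferon targets or the synthetases of the multisynthetase complex. The mitochondrial synthetases had medians of -0.02 and 0.02 in scramble replicates 1 and 2 and -0.08 and 0.03 in shADAR1 replicates 1 and 2, so the groups overlapped. RNA per cell and the share of cells in a given state cannot be told apart in such bulk libraries.

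The gamma-type interferon targets were described because WARS1 belongs among them. Of 14 listed genes 11 were tested, 7 had a lower estimate, and the median log2 fold change was -0.21, which ran from -0.33 without shADAR1 replicate 1 to -0.06 without shADAR1 replicate 2. TAP1, a subunit of the peptide transporter for antigen presentation, had 265 and 241 CPM in scramble and 182 and 157 CPM in shADAR1, a log2 fold change of -0.58 (SE 0.19). GBP4, a guanylate-binding protein, had 139 and 161 CPM in scramble and 113 and 118 CPM in shADAR1. Neither gene overlapped between groups. Of the 11 tested genes, 4 had both shADAR1 libraries below both scramble libraries, against 12.6% of all tested genes. The 4 with a higher estimate were GBP1, GBP2, GBP5 and CIITA. Their log2 fold changes were 0.07, 0.11, 0.17 and 0.06, each with overlapping groups. Replicate 2 was the lower of the shADAR1 libraries for TAP1, whereas replicate 1 was the lower for GBP4 and WARS1. TAP1 had an unadjusted p under 0.05, and no gene of the list passed after adjustment.

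The promoters of the synthetase genes were read for the element bound by ATF4 with C/EBP proteins, because 12 of the 13 genes known as ATF4-responsive had lower estimates. RefSeq promoter windows of 250 bases before to 50 after a start (GRCh38.p14) were found for 30 of the 35 genes. LARS1, VARS1, YARS1, AARS2 and VARS2 had none. The letters NTTGCNTCA, on either strand, occurred in 6 of 16 cytosolic genes, all 6 among the 10 matched ATF4-responsive genes, and in 0 of 14 mitochondrial genes. They occurred in 3.21% of 35116 windows of the table. Each line gives 30 bases of the gene's own strand, 5′ to 3′, with the match in capitals.
AARS1, chr16:70289675-70289704, minus strand: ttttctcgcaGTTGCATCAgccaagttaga
CARS1, chr11:3057407-3057436, minus strand: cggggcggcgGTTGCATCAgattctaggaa
IARS1, chr9:92293692-92293721, minus strand: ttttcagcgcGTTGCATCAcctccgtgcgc
MARS1, chr12:57488053-57488082, plus strand: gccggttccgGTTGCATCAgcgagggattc
NARS1, chr18:57621803-57621832, minus strand: ctacgctctcTGATGCAACgccggaatcgc
TARS1, chr5:33440956-33440985, plus strand: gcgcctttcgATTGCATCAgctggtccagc

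The match began 188 bases upstream of the start in AARS1, 14 in IARS1, 5 in MARS1 and 3 in CARS1. It began at base 2 of the transcript in TARS1 and at base 15 in NARS1, where it lay on the opposite strand. The log2 fold changes of these 6 genes ran from -0.31 for CARS1 to -0.02 for IARS1. GARS1, SARS1, EPRS1 and WARS1 are known as ATF4-responsive and had no match in this window, and their log2 fold changes were -0.33, -0.24, 0.32 and -0.83. Of the 24 matched genes of the ATF4 pathway list, 4 held the letters, namely CEBPG, CHAC1, SLC1A4 and SLC1A5.

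The WARS1 promoter is printed because WARS1 had the largest difference and is a target of both ATF4 and interferon gamma. RefSeq gives 2 starts 980 bases apart, and the 250 bases upstream of the downstream start are shown, chr14:100375348-100375597 on the minus strand (GRCh38.p14), with 2 interferon-type matches in capitals.
WARS1: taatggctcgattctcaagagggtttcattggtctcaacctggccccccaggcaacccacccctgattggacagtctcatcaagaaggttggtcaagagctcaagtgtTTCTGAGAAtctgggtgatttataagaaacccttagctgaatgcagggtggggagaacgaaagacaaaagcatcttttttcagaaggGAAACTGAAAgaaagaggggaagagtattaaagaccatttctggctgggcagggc

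The first match, TTC, any 3 bases and GAA, is the form of a gamma-activated sequence and began 142 bases before the start. It occurred in 7.66% of all windows and 9.38% of all genes with windows. Among members it occurred also in CARS1, TARS1, PARS2 and WARS2, and it was searched after the promoters had been seen. The second, GAAA, any 2 bases and GAAA, is the form of an interferon-stimulated response element and began 55 bases before the start. It occurred in 3.57% of all windows, in 4.38% of all genes with windows and in 1 other member, EARS2, on the opposite strand. A match describes the letters and does not show binding in these cells.

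The genes that sense uncharged tRNA or use charged tRNA had medians nearer to 0 than the -0.14 of the cytosolic synthetases. They were not nearer to 0 than the -0.021 of the mitochondrial synthetases. The 9 genes of GCN2, its activator GCN1, IMPACT, eIF2α and eIF2B had a median log2 fold change of -0.09. EIF2AK4, which encodes GCN2, had the largest estimate of these, 0.33 (SE 0.70), but only 6 to 17 counts per library. EIF2B3, a subunit of the exchange factor eIF2B, had 36.3 and 32.4 CPM in scramble and 28.0 and 33.7 CPM in shADAR1. EIF2S1, which encodes eIF2α, had 135 and 143 CPM in scramble and 126 and 128 CPM in shADAR1. The log2 fold changes of these 2 genes were -0.15 and -0.12.

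The 5 cytosolic elongation factor genes, which carry charged tRNA to the ribosome and move it on, had a median of -0.06. EEF1D and EEF1B2, subunits of the exchange factor of eEF1A, had log2 fold changes of -0.10 and -0.08, and EEF1A1, which binds the charged tRNA, had 0.08. EEF1A1 was by far the most abundant of the genes described, at 10699 and 13072 CPM in scramble and 10948 and 14127 CPM in shADAR1, and in both groups replicate 2 was the higher library.

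Of 15 genes of tRNA maturation and proofreading, 13 had a lower estimate, with a median of -0.06. TSEN34, a subunit of the tRNA splicing endonuclease, had 26.7 and 16.2 CPM in scramble and 15.7 and 13.4 CPM in shADAR1, a log2 fold change of -0.56 (SE 0.27), which was -0.16 without scramble replicate 1. SEPSECS, which completes selenocysteine on its tRNA, had 9.79 and 11.0 CPM in scramble and 13.1 and 11.8 CPM in shADAR1. POP1, a protein of RNase P, which trims the 5′ end of tRNA precursors, had a log2 fold change of -0.19.

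The 13 genes that work with the mitochondrial synthetases had a median of -0.03, with 8 lower, close to that of the mitochondrial synthetases themselves. PTCD3, a protein of the small subunit of the mitochondrial ribosome, had 64.3 and 54.6 CPM in scramble and 75.1 and 68.8 CPM in shADAR1, a log2 fold change of 0.27 (SE 0.20). Its groups overlapped in FPKM, at 19.6 and 26.7 in scramble and 21.4 and 30.9 in shADAR1, and its implied transcript length varied 1.83-fold between libraries. QRSL1, a subunit of the amidotransferase that turns the glutamate placed by EARS2 into glutamine, had 37.0 and 40.2 CPM in scramble and 31.2 and 32.8 CPM in shADAR1, a log2 fold change of -0.27 (SE 0.19). MTIF2, a mitochondrial initiation factor, had a log2 fold change of 0.21 with overlapping groups. With 1 library left out, the list medians ran from -0.12 to -0.01 for uncharged tRNA sensing, from -0.12 to 0.14 for elongation factors, from -0.18 to 0.02 for tRNA maturation and from -0.09 to 0.08 for the mitochondrial partners. None of the genes in these lists passed the test after adjustment.

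Overlapping annotation limits some of these values. In GENCODE release 29, exons of 16 members overlap another gene on the opposite strand and exons of 6 overlap another gene on the same strand, as do HARS2 with ZMAT2 and VARS2 with GTF2H4. HARS1 and HARS2 lie head to head and overlap each other. For 11 members a pseudogene named after the gene is annotated. The library kit does not mark strand, and how reads shared between such genes were counted was not given in the sources used here.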

How the data were processed

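mRNA of NK-92 cells was sequenced in 2 scramble and 2 shADAR1 libraries. The authors deposited estimated counts per gene, not normalized and not whole numbers, and FPKM values, which scale counts by transcript length and depth. The submitters' processing notes name fastp 0.18.0. The aligner, counter, genome build, annotation and strand setting are not given in the sources used here. No per-sample column was left unused (0).

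Estimated counts were rounded, filtered with filterByExpr (minimum count 10), scaled by TMM and tested in R 4.3.3 with the quasi-likelihood test of edgeR 4.0.16, without covariates and with Benjamini-Hochberg adjustment over 11810 genes. Calls needed an adjusted p under 0.05 and a 1.5-fold change or more. CPM values use TMM library sizes. The standard error is the size of the log2 fold change divided by the square root of the F statistic. FPKM was used to compare levels between genes and, as a description, to set beside the CPM of each group, and was tested only in an alternative. At the depth of 37881704 to 39960491 counts per library, the spread between 2 libraries outweighs counting error except in low genes. The fitting script was tested on simulated data.

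Genes were matched by Ensembl identifier, and 20301 of 20323 had a symbol. Gene positions, lengths and overlaps came from GENCODE release 29 and promoters from RefSeq (GRCh38.p14). Members and lists were chosen with earlier results of these data known. Given in full were WARS1, GARS1, KARS1, EPRS1, the 5 members of each compartment with the largest absolute fold change, members at an unadjusted p under 0.05, those of highest and lowest FPKM, the scaffold genes, the 3 genes of each companion list with the largest absolute fold change, and ADAR. RARS1, SARS1, AARS1, YARS1, TARS1, GBP1, GBP2, GBP5 and CIITA were described after their values were seen, as were DDIT3 and other overlapping genes. Protein sequences were not used here.

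Alternatives were upper quartile and RLE scaling, DESeq2 1.42.0, a minimum of 1 count, a mean of at least 50 counts, a replicate block, each library left out, and lists without their leading genes. Added after seeing the data were limma 3.58.1 on log2(FPKM + 1), regression of length and GC content (natural splines, 4 degrees of freedom, 98.3% of tested genes), sums without WARS1 and the gamma-activated sequence motif. Of the genes in the lists, 2 are not reported here.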

Additional observations from a re-analysis of the deposited data

How the results depend on the processing

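Of the results recomputed, 579 values under alternatives kept their direction and their side of the threshold or stayed within the spread, 17 moved, 17 reversed and 1 became stronger, and no member was called by adjusted p and fold change under any of them. With an unadjusted p in place of the adjusted one, 1 member passed, WARS1, whose log2 fold change was -0.84 in DESeq2, -0.82 under upper quartile scaling and -0.76 with length and GC content regressed out. Leaving out 1 library gave 0 to 1 members at an unadjusted p under 0.05 and a median of the ATF4-responsive synthetases of -0.32 to -0.13. The median of the mitochondrial synthetases ranged from -0.07 to 0.02 in the same way and was 0.01 with limma on log2 FPKM. The cytosolic FPKM sum without WARS1 gave -0.11. In FPKM, 11 members, 7 cytosolic and 4 mitochondrial, had both shADAR1 libraries below both scramble libraries (11.6% of all tested genes) and 0 had them above (14.2%).

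WARS2, at -0.002, turned to 0.0093 under upper quartile scaling, 0.0065 with a mean of at least 50 counts and 0.0073 with limma on log2 FPKM. These estimates changed sign when 1 library was left out, over ranges of -0.51 to 0.013 for KARS1, -0.26 to 0.0076 for FARS2, -0.11 to 0.23 for FARSB, -0.15 to 0.23 for TARS2, -0.086 to 0.078 for WARS2, -0.13 to 0.057 for AIMP1, -0.50 to 0.15 for EEF1E1, -0.23 to 1.24 for EIF2AK4, -0.22 to 0.017 for EEF1D, -0.35 to 0.14 for EEF1B2 and -0.12 to 0.25 for EEF1A1. Over all genes, 47 passed an adjusted p under 0.05 without scramble replicate 1, 16 without shADAR1 replicate 1, 2 without scramble replicate 2 and 1 without shADAR1 replicate 2. In each of these fits 1 group is a single library, assumed to vary like the other group, from which the spread is estimated. The cause was not tested.

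The replicate numbers are shared in the labels only. The deviations of the replicates numbered 1 from their group means correlated at r = 0.31 across 11810 genes. With the number as a block, 1 member had an unadjusted p under 0.05 and 0 passed after adjustment, and 13 of 11810 genes passed an adjusted p under 0.05.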
